A study of Homo sapiens with 8 samples.

Results

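The regulators of G-protein signalling (RGS proteins) described here were RGS1, RGS2, RGS3, RGS10, RGS12, RGS14, RGS16 and RGS19. They are 8 of the 63677 annotated genes of the deposited count tables, and each was matched by its gene symbol. They were chosen by their expression in these same libraries, that is by their log2 fold changes with ACBI-1 in each line and their levels in the 2 lines, so their values are a description and carry no test of their own. RNA was sequenced from DND-41 and MOLT-4, established cell lines of human T-cell acute lymphoblastic leukaemia, grown in RPMI-1640 medium with serum and antibiotics. The groups were DND-41 with DMSO, the solvent control, DND-41 with 100 nM ACBI-1, MOLT-4 with DMSO and MOLT-4 with 100 nM ACBI-1, each collected after 3 h and each with 2 libraries. The compound is a PROTAC, a linker molecule that recruits the ubiquitin ligase VHL so that SMARCA2, SMARCA4 and PBRM1, subunits of SWI/SNF chromatin remodelling complexes, are degraded. Separate cultures are not stated for the libraries of a group, so the tests cover only how far these libraries vary, and that may be technical.

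A G-protein-coupled receptor switches on a heterotrimeric G protein by letting its alpha subunit exchange GDP for GTP, and the signal ends when the alpha subunit hydrolyses that GTP. RGS proteins carry a shared domain that speeds this hydrolysis, and so shorten the signal. In lymphocytes they are known as brakes on chemokine receptors, which act through alpha subunits of the Gi class. RGS1, RGS2, RGS3 and RGS16 belong to the R4 subfamily, RGS10, RGS12 and RGS14 to the R12 subfamily, and RGS19 to the RZ subfamily.

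The libraries held between 19867779 and 20082524 counts, of which mitochondrially encoded genes took 13.3% to 20.04%. All 8 T-cell markers had reads in every library, with a summed level of 4619 to 4687 CPM, the read count scaled to a common library size, in DND-41 and 2228 to 2313 in MOLT-4. TLX3, the homeobox oncogene of DND-41, had 4611 to 7523 counts there and at most 9 in MOLT-4, and TAL1, the basic helix-loop-helix oncogene of MOLT-4, had 722 to 796 counts there and at most 4 in DND-41. Of the 6 B-cell markers 3 or 4 had reads in each library, and their sum was 1524 to 1758 CPM in DND-41 and 10.5 to 17.5 in MOLT-4. Nearly all of it was CD79A, while MS4A1 was at 0 in every library. DND-41 DMSO replicate 2 stood apart in holding reads of genes that only MOLT-4 expresses, at 0.576% of their MOLT-4 level over 28 such genes, against 0.0221% to 0.0563% in the other DND-41 libraries. The 2 DND-41 libraries with ACBI-1 differed more from each other than those of any other group, with a chi-square of 15.6 per gene against 2.99 to 5.10, and mitochondrial shares of 17.4% and 13.3%.

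Sequence before the transcription start is shown for 3 members. RGS1 and RGS2 lie in 1 row of RGS genes on chromosome 1 and were ordered oppositely in the lines, and RGS16 had the lowest log2 fold change with ACBI-1 among the members tested in each line. Each run is the 250 bases before the RefSeq start on the gene's own strand (GRCh38.p14), 5′ to 3′. Capitals mark matches, on either strand, to the E-box CANNTG, the RUNX motif TGTGGT, the GC box GGGCGG or the TATA box TATAAA. No marked matches overlap.

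RGS1, chr1:192575523-192575772, plus strand: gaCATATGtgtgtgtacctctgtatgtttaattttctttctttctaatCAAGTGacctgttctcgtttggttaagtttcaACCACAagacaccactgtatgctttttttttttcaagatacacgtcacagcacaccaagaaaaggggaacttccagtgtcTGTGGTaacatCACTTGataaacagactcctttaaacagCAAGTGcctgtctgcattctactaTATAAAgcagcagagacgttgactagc
RGS2, chr1:192808789-192809038, plus strand: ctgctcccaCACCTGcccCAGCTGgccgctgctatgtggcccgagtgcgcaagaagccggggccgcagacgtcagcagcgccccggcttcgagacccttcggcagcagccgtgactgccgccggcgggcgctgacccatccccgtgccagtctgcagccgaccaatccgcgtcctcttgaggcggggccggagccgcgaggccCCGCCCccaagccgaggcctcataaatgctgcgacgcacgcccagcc
RGS16, chr1:182604390-182604639, minus strand: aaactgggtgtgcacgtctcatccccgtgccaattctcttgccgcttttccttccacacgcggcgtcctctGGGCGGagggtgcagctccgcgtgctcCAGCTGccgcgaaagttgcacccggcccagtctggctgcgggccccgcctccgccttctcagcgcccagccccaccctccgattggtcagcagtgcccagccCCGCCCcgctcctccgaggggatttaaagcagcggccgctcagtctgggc

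The RGS1 window was the poorest of the 3 in G and C, with 39.2%, and held 4 E-boxes, 2 RUNX matches and 1 TATA box. The RGS2 window had 72.8% G and C, with 2 E-boxes and 1 GC box. The RGS16 window had 68.4% G and C, with 1 E-box and 2 GC boxes. The median over all 35114 RefSeq windows was 58.0%. All 8 members were matched in RefSeq, with 18 start windows between them. RGS3 and RGS12 have 5 windows each, so the counts that follow are of windows and not of members. An E-box was present in 11 of these 18 and in 61.8% of all windows, a GC box in 10 and in 42.6%, a RUNX match in 2 and in 11%, and a TATA box in 2 and in 10.7%. The RBPJ motif TGGGAA matched 2 of the 18, both of RGS3, and 20.8% of all windows. The CRE TGACGTCA, the GATA motif AGATAA, the ETS motif CCGGAAGT and the NF-kB motif matched none of the 18, against 1.65%, 9.17%, 3.42% and 5.21% of all windows. A match is a description of these letters only.

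With ACBI-1, 5 of the 8 members were lower past the threshold in DND-41 (edgeR, adjusted over all genes at 5%): RGS16, RGS12, RGS3, RGS19 and RGS1. In MOLT-4 RGS16, RGS19 and RGS3 were lower past it, which is 3 of the 7 members with enough reads to be tested. No member was called higher in either line. Of all genes tested, 9.83% were called in DND-41, 6.05% lower and 3.78% higher. In MOLT-4 10.8% were called, 6.94% lower and 3.90% higher. The members were listed with these contrasts known, so nothing is read from their share. The median log2 fold change of the members was -0.45 in DND-41 and -0.52 in MOLT-4, beside 0.0029 and -0.00097 over all genes tested. The libraries of the groups did not overlap for 7 of 8 members in DND-41, where 49.0% of all genes tested were so separated, and for 5 of 7 in MOLT-4, where 50.8% were.

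These counts rested on few libraries. Without ACBI-1 replicate 1 no member was called in DND-41, where only 3 genes of the whole table were, without ACBI-1 replicate 2 only RGS3 and RGS16 were, and without DMSO replicate 2 RGS1, RGS3 and RGS16 were. In MOLT-4 no member was called on leaving out either of its ACBI-1 libraries, nor was any of all genes, and without DMSO replicate 1 the call of RGS16 was lost, which left 2. Testing with no filter on low counts called 0 members in each line, and asking for a change above 1.5-fold left 1 in DND-41 and 0 in MOLT-4.

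**Figure D1:**
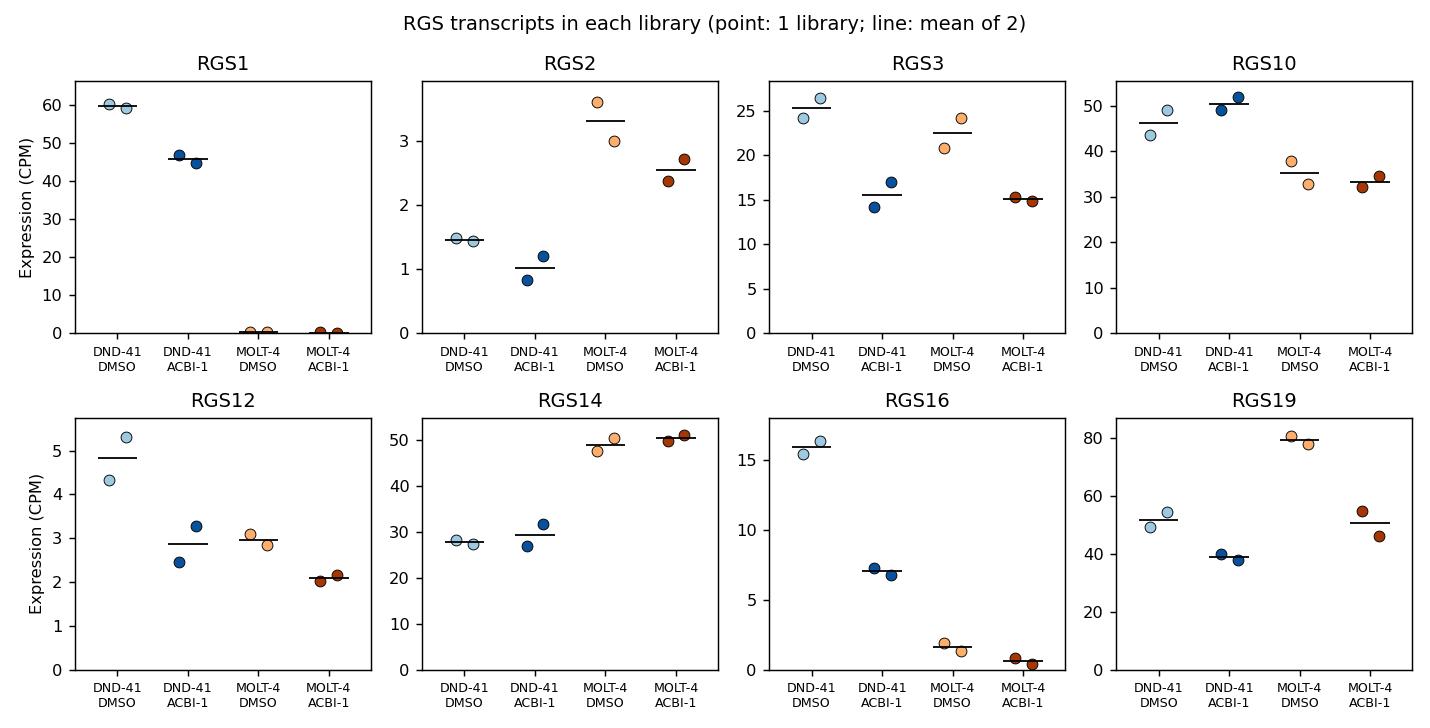
Expression in CPM of each RGS member in each library, with 1 panel per gene and a linear axis from 0. Points are single libraries and lines are means of 2, for DND-41 and MOLT-4 with DMSO and ACBI-1. RGS1 stood at 44.7 to 60.3 CPM in DND-41 and at most 0.258 in MOLT-4, and RGS16 was lower with ACBI-1 in both lines.

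RGS16, a lymphocyte R4 member that acts on Gi and Gq alpha subunits, was at 15.5 and 16.4 CPM in the DND-41 libraries with DMSO and at 7.31 and 6.79 with ACBI-1. In MOLT-4 it was at 1.91 and 1.34 CPM with DMSO and at 0.857 and 0.411 with ACBI-1. The DMSO libraries were the higher ones in both lines, with no overlap. The log2 fold change was -1.16 ± 0.12 (SE) in DND-41, a fold of 0.448, and -1.35 ± 0.37 in MOLT-4, a fold of 0.391. A lower log2 fold change was found for 0.399% of all genes tested in the DND-41 fit and for 0.504% in the MOLT-4 fit. The members were chosen by such values, so this rank is a description. The MOLT-4 value came from 37 and 26 reads with DMSO and 17 and 8 with ACBI-1. It moved between -1.98 and -0.92 over 12 alternatives, against -1.22 to -1.10 over 13 in DND-41. DESeq2 did not call RGS16 in MOLT-4, and its edgeR call there was lost at a threshold of 1% (edgeR adjusted p = 0.0152). In the authors' deposited table RGS16 had -1.16 ± 0.19 in DND-41 and, with its sign turned, -1.36 ± 0.61 in MOLT-4, where no adjusted p was given.

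RGS3, an R4 member with short forms and longer forms that add a PDZ domain, was at 24.2 and 26.4 CPM in DND-41 with DMSO and at 14.2 and 16.95 with ACBI-1. The MOLT-4 libraries were at 20.8 and 24.1 CPM with DMSO and at 15.3 and 14.8 with ACBI-1. Every ACBI-1 library lay below every DMSO library of its line. The log2 fold changes were -0.68 ± 0.10 in DND-41 and -0.58 ± 0.10 in MOLT-4, folds of 0.623 and 0.667. RGS3 was lower in all 13 alternatives in each line. RefSeq gives it 5 start windows on chromosome 9, and gene counts do not show which start was used.

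RGS1, a B- and T-lymphocyte regulator that dampens chemokine responses, was at 60.3 and 59.3 CPM in DND-41 with DMSO and at 46.9 and 44.7 with ACBI-1. The groups did not overlap, and the log2 fold change was -0.37 ± 0.08, a fold of 0.775. In MOLT-4 the 4 libraries held 13 RGS1 reads in all (95% exact Poisson interval 6.92 to 22.2, counting error only), as 5 and 4 with DMSO and 4 and 0 with ACBI-1. The DND-41 libraries held 4303. The library at 0 allows up to 3 reads, so no response of RGS1 could be given for MOLT-4. The MOLT-4 DMSO libraries were at 0.431% and 0.346% of the DND-41 DMSO level. Reads of 7 or 8 other genes that only DND-41 expresses stood at 0.0259% to 0.149% of their DND-41 level in the MOLT-4 libraries, and their part in the RGS1 reads was not tested.

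RGS2, an R4 member with a preference for Gq, was at 1.48 and 1.44 CPM in DND-41 with DMSO and at 0.834 and 1.20 with ACBI-1. Its MOLT-4 levels were 3.61 and 3.00 CPM with DMSO and 2.37 and 2.72 with ACBI-1. The ACBI-1 libraries were the lower ones in each line, but neither log2 fold change passed the threshold, at -0.50 ± 0.33 and -0.38 ± 0.21. It had only 17 to 70 reads a library, and its error in DND-41 was the widest of the 8 members there.

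RGS12, a large R12 protein with Ras-binding domains and a GoLoco motif, was at 4.33 and 5.31 CPM in DND-41 with DMSO and at 2.45 and 3.27 with ACBI-1. The MOLT-4 libraries had 3.09 and 2.84 CPM with DMSO and 2.02 and 2.16 with ACBI-1. The groups did not overlap in either line. The log2 fold change was -0.73 ± 0.20 in DND-41, past the threshold, and -0.52 ± 0.22 in MOLT-4, not past it. DESeq2 did not call RGS12 in DND-41, where it had 50 to 107 reads a library.

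RGS10, the smallest R12 protein and a Gi regulator of blood cells, was at 43.6 and 49.0 CPM in DND-41 with DMSO and at 49.05 and 51.8 with ACBI-1. MOLT-4 libraries had it at 37.9 and 32.7 CPM with DMSO and at 32.2 and 34.5 with ACBI-1. The DND-41 libraries separated by less than 0.1 CPM and the MOLT-4 libraries overlapped, with log2 fold changes of 0.14 ± 0.08 and -0.09 ± 0.08. RGS14, the other R12 protein with Ras-binding domains and a GoLoco motif, was at 28.2 and 27.3 CPM with DMSO and at 27.0 and 31.7 with ACBI-1 in DND-41. In MOLT-4 it was at 47.5 and 50.3 CPM with DMSO and at 49.7 and 50.9 with ACBI-1. The groups overlapped in both lines, with log2 fold changes of 0.10 ± 0.09 and 0.03 ± 0.07. Neither RGS10 nor RGS14 passed the threshold in either line.

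RGS19, also called GAIP, a Gi regulator anchored by a string of cysteines, was at 49.2 and 54.3 CPM in DND-41 with DMSO and at 39.9 and 37.9 with ACBI-1. In MOLT-4 it was at 80.7 and 77.7 CPM with DMSO and at 54.8 and 46.2 with ACBI-1. All ACBI-1 libraries lay below the DMSO libraries of their line. The log2 fold change was -0.40 ± 0.08 in DND-41 and -0.66 ± 0.08 in MOLT-4, folds of 0.760 and 0.634. Subtracting the MOLT-4 reads estimated for each DND-41 library took 9 of the 1094 RGS19 reads of DMSO replicate 2 and changed no member's call.

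**Figure D2:**
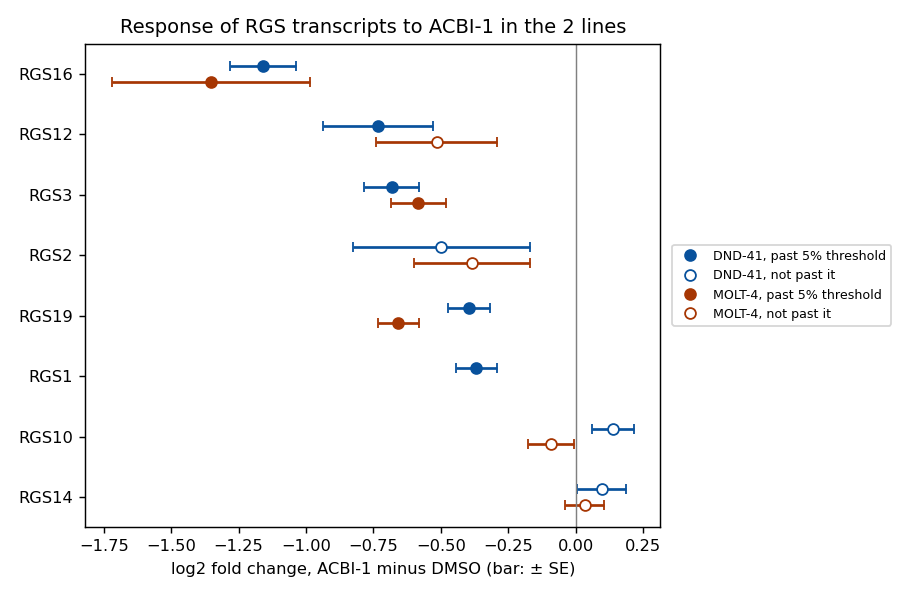
Log2 fold change of each RGS member, ACBI-1 minus DMSO, for DND-41 and for MOLT-4, with bars of ± SE. Filled points passed the threshold over all genes and open points did not. RGS16 lies lowest in both lines at -1.16 and -1.35, RGS10 and RGS14 lie near 0, and RGS1 has no MOLT-4 value.

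Whether the responses differed between the lines was asked with the interaction of line and treatment over all 8 libraries. RGS1 has too few MOLT-4 reads for a response. None of the other 7 members was called by edgeR or by DESeq2, beside 0.641% of all genes tested (0.199% with a higher and 0.442% with a lower response in MOLT-4), and 1 member had an unadjusted p below the threshold. That member was RGS19, with a more negative response in MOLT-4, by a log2 difference of -0.24 ± 0.11. The differences were 0.14 ± 0.38 for RGS2, 0.12 ± 0.15 for RGS3, -0.21 ± 0.12 for RGS10, 0.24 ± 0.31 for RGS12, -0.04 ± 0.12 for RGS14 and -0.17 ± 0.37 for RGS16. The errors of RGS2, RGS12 and RGS16 leave room for differences of more than 1.5-fold.

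Without ACBI-1, the lines differed most in RGS1 and RGS16 among the 8 members, and least in RGS3. MOLT-4 minus DND-41 in DMSO, the log2 difference was -7.97 ± 0.19 for RGS1, from means of 59.8 ± 0.70 CPM (SD, n = 2) in DND-41 and 0.232 ± 0.036 in MOLT-4. The MOLT-4 side rests on 5 and 4 reads, and DESeq2 gave a wider error, -7.99 ± 0.49. The difference was -3.29 ± 0.18 for RGS16, from 15.9 ± 0.65 to 1.62 ± 0.40 CPM. RGS2 was the only R4 member higher in MOLT-4, by 1.18 ± 0.25. RGS3 had a difference of -0.17 ± 0.10, which did not pass the threshold.

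In the R12 and RZ subfamilies all 4 members passed the threshold. RGS14 was higher in MOLT-4 by a log2 difference of 0.82 ± 0.08, from 27.8 ± 0.64 to 48.9 ± 1.96 CPM, and RGS19 by 0.61 ± 0.08, from 51.8 ± 3.59 to 79.2 ± 2.07. RGS12 and RGS10 were lower there, with log2 differences of -0.70 ± 0.20 and -0.39 ± 0.08. In all, 3 members were higher and 4 lower in MOLT-4 past the threshold, and the DMSO libraries of the lines did not overlap for 8 of 8. Of all genes tested 64.4% were called, 32.8% higher and 31.6% lower, and 81.8% did not overlap. The call of RGS12 was lost without DND-41 DMSO replicate 2, where its log2 difference was -0.54. It was also lost at a minimum fold of 1.5, where those of RGS10 and RGS19 were lost too, which left 4. With the replicate number as a block RGS12 was not called either, but that fit compared the lines at replicate 1 only. The 7 called members kept their direction in 16 of 16 alternatives each.

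RGS1 and RGS2 lie in a row of RGS genes on chromosome 1, with starts 233.3 kb apart. In RefSeq order by start the row is RGS18, RGS21, RGS1, RGS13 and RGS2, all on the plus strand. RGS18, a regulator best known from platelets, had 179 to 282 reads in the DND-41 libraries and 24 to 30 in MOLT-4. RGS21 had 0 reads in all 8 libraries. RGS1 had 929 to 1224 reads in DND-41 and 0 to 5 in MOLT-4, and RGS13, a small R4 regulator of B and mast cells, had 24 to 41 and 0. RGS2 at the end of the row went the other way, with 17 to 30 reads in DND-41 and 47 to 70 in MOLT-4. This row was picked out after its values were seen.

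Per length of exon, RGS10 was the most abundant member in DND-41 with DMSO, at 37.0 CPM per kb, followed by RGS19 at 25.5, RGS1 at 14.5, RGS14 at 7.31 and RGS16 at 6.56. RGS3 at 1.83, RGS2 at 0.696 and RGS12 at 0.351 CPM per kb closed the order, and no neighbours in it overlapped. In MOLT-4 with DMSO, RGS19 led at 39.0 CPM per kb, followed by RGS10 at 28.2 and RGS14 at 12.9. RGS3 at 1.63 and RGS2 at 1.57 CPM per kb overlapped, and RGS16 at 0.669, RGS12 at 0.216 and RGS1 at 0.0564 followed. RGS3 and RGS12 have long combined exon models of 13.8 kb each, which lowers their values on this scale. The summed level of the members was 226.8 and 239.4 CPM in DND-41 with DMSO and 187.6 and 194.5 with ACBI-1. In MOLT-4 it was 195.7 and 192.2 CPM with DMSO and 157.4 and 151.7 with ACBI-1.

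**Figure D3:**
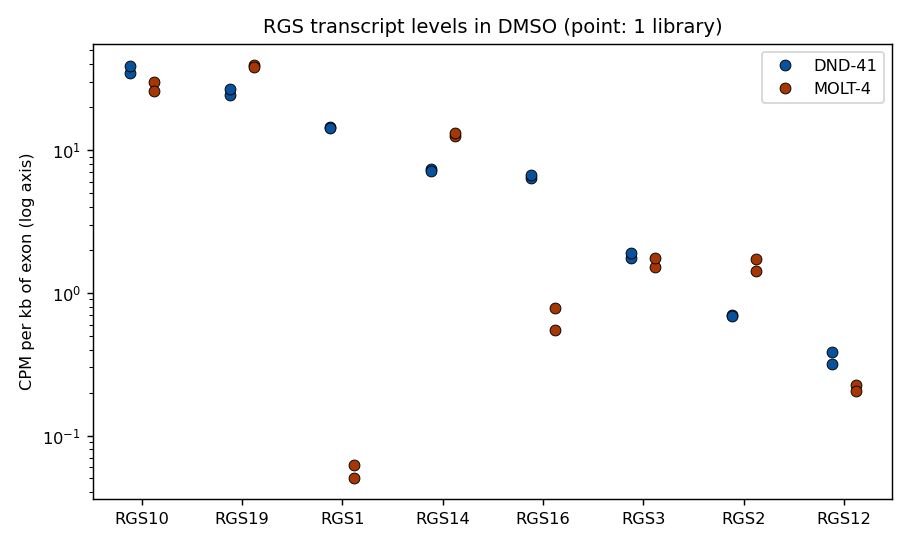
Levels of the RGS members in the DMSO libraries in CPM per kb of exon, on a log axis, with 1 point per library. RGS10 and RGS19 lie highest in both lines, at 25.5 to 39.0 on average, and RGS1 falls from 14.5 in DND-41 to 0.0564 in MOLT-4.

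Across the 8 libraries, which fall into only 4 groups, other genes followed the same levels closely in log2(CPM + 1). This is a description over 10256 genes, and what sets the likeness was not tested. The 2 genes most like RGS1 were CTD-2228K2.7 (Pearson r = 0.9998) and CHST1 (0.9995). For RGS16 they were DENND1C (0.997) and DYNC1LI1 (0.996), for RGS14 BHLHE23 (0.997) and AP4M1 (0.996), and for RGS3 PLA2G15 (0.991) and GRAMD1A (0.983). For RGS10 they were SEC11C (0.989) and ABT1 (0.984), and for RGS19 RAB15 (0.980) and ARHGEF2 (0.980).

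The rest of the G-protein pathway was followed in lists of 133 genes. In DND-41, 3 rose and 13 fell of 82 tested, or 19.5%, and in MOLT-4 4 rose and 15 fell of 86, or 22.1%, by edgeR adjusted over all genes, beside the 9.83% and 10.8% of all genes given above. Without ACBI-1 replicate 1 the DND-41 count was 1, without ACBI-1 replicate 2 it was 5 and without DMSO replicate 1 it was 8. The MOLT-4 count was 0 on leaving out either of its ACBI-1 libraries. DESeq2 called 11 in each line. The edgeR calls were uneven over the lists. Leukocyte receptors gave 10 of 24 tested in each line, or 41.7%. Each other list had between 0% and 18.8% called in DND-41, and between 0% and 35.7% in MOLT-4. These lists were drawn up with results of these data known, and the counts are a description.

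A list of 20 genes held other RGS genes and, beside them, RGS7BP, RGS9BP, GPSM1, GPSM2, GPSM3 and PCP2. In DND-41 0 of 9 tested were called, with 2 at an unadjusted p below the threshold and 0 by DESeq2. In MOLT-4 1 of 8 was called, RGS17, an RZ relative of RGS19. It had 9 and 13 reads with DMSO and 31 and 26 with ACBI-1, and rose by 1.33 ± 0.36 on the log2 scale (edgeR adjusted p = 0.0154). DESeq2 called none of the 8. The median log2 fold change of the list was -0.10 in DND-41 and 0.07 in MOLT-4.

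Among 16 other proteins with an RGS or RGS-like domain, 2 of 12 tested fell in DND-41, and 4 fell and 1 rose of 14 in MOLT-4. GRK6, a kinase that marks active receptors for arrestin, was at 118 and 122 CPM with DMSO and 80.6 and 93.3 with ACBI-1 in DND-41, with a log2 change of -0.45 ± 0.07 (edgeR adjusted p = 3.64e-05). In MOLT-4 it fell from 159 and 156 to 118 and 115 CPM, with a log2 change of -0.44 ± 0.06 (edgeR adjusted p = 1.06e-05). ARHGEF11, a RhoA exchange factor downstream of G12 and G13, fell in MOLT-4 from 30.5 and 30.1 to 22.8 and 17.8 CPM, with a log2 change of -0.58 ± 0.10 (edgeR adjusted p = 0.000164). It also fell in DND-41, from only 23 and 29 reads to 7 and 12, with a log2 change of -1.45 ± 0.40. The 29 reads are those of DMSO replicate 2, which holds the MOLT-4 reads described above. DMSO replicate 1, with 23, held such reads at 0.0563% of their MOLT-4 level. The part of MOLT-4 reads in this fall was not tested. AXIN2, a Wnt target and scaffold of beta-catenin breakdown, fell in MOLT-4 from 8.40 and 8.26 to 4.54 and 5.19 CPM, with a log2 change of -0.79 ± 0.15 (edgeR adjusted p = 0.000629). Outside the naming rule, and picked after their values were seen, the other MOLT-4 calls were ARHGEF1, which fell by 0.21 ± 0.06, and AXIN1, which rose by 0.26 ± 0.07.

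Of 15 alpha subunits, 1 of 11 tested fell in DND-41 and 1 of 10 in MOLT-4. GNAO1, a Gi-class subunit, fell in DND-41 from 212 and 208 to 158 and 176 CPM, with a log2 change of -0.31 ± 0.07 (edgeR adjusted p = 0.00183). GNA15, the Gq-class subunit of blood cells, fell in MOLT-4 from 154 and 142 to 81.4 and 98.7 CPM, with a log2 change of -0.72 ± 0.07 (edgeR adjusted p = 1.34e-07). Of 17 beta and gamma subunits none was called by edgeR or DESeq2 among 10 tested in DND-41 and 12 in MOLT-4, and 0 and 1 had an unadjusted p below the threshold.

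Of 26 effectors, 3 of 16 tested fell in DND-41 and 2 of 18 in MOLT-4, while DESeq2 called 2 and 0. PIK3R5, the adaptor of the phosphoinositide kinase that beta and gamma subunits activate, fell in DND-41 from 63.5 and 62.7 to 45.6 and 51.9 CPM, with a log2 change of -0.36 ± 0.08 (edgeR adjusted p = 0.00172). In MOLT-4 it fell from 6.08 and 5.99 to 3.68 and 3.54 CPM, with a log2 change of -0.75 ± 0.17 (edgeR adjusted p = 0.00341). PIK3CG, the catalytic subunit of that kinase, fell in DND-41, with a log2 change of -0.37 ± 0.08 (edgeR adjusted p = 0.00329). The cyclic AMP phosphodiesterases PDE4A in DND-41 and PDE4D in MOLT-4 fell, with log2 changes of -0.69 ± 0.17 and -0.58 ± 0.15 (edgeR adjusted p = 0.00521 and 0.00966).

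Of 39 leukocyte receptors, 3 rose and 7 fell of 24 tested in DND-41, and 2 rose and 8 fell of 24 in MOLT-4. CXCR4, the chemokine receptor whose Gi signal RGS1 and RGS16 are known to dampen, fell from 214 and 216 to 86.3 and 90.0 CPM in DND-41, with a log2 change of -1.27 ± 0.07 (edgeR adjusted p = 2.69e-15). In MOLT-4 it fell from 378 and 373 to 174 and 196 CPM, with a log2 change of -1.03 ± 0.06 (edgeR adjusted p = 2.08e-11). S1PR4, a sphingosine 1-phosphate receptor, fell in DND-41, with a log2 change of -0.83 ± 0.08 (edgeR adjusted p = 8.89e-09). CCR9, the thymocyte and gut-homing receptor, and S1PR3 fell in MOLT-4, with log2 changes of -0.88 ± 0.07 and -1.18 ± 0.13 (edgeR adjusted p = 1.17e-09 and 4.17e-07). PTGDR2, a prostaglandin D2 receptor, rose in DND-41 from 8.52 and 8.04 to 19.3 and 23.7 CPM, with a log2 change of 1.39 ± 0.12 (edgeR adjusted p = 3.00e-10). Outside the naming rule, and picked after their values were seen, other rises were GPR174 by 0.56 ± 0.14 in DND-41, and CCR4 by 0.81 ± 0.14 and S1PR1 by 0.41 ± 0.08 in MOLT-4.

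**Figure D4:**
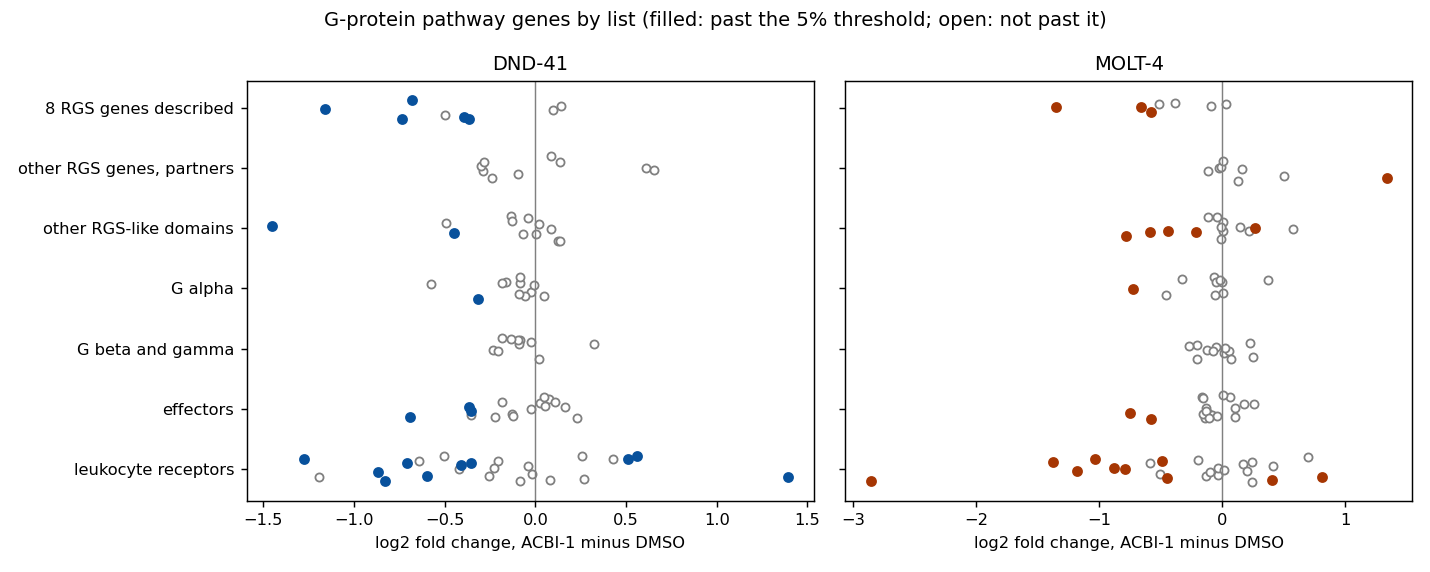
Log2 fold change, ACBI-1 minus DMSO, of each tested RGS member and each tested gene of the other G-protein pathway lists. There is 1 panel per line and 1 row per list. Filled points passed the threshold and open points did not. The top row holds the 8 RGS members, of which 5 are filled in DND-41 and 3 in MOLT-4, all left of 0. In the other rows, 13 of 16 filled points lie left of 0 in DND-41 and 15 of 19 in MOLT-4. Over all genes tested, 848 of 1378 called were lower in DND-41 and 1004 of 1568 in MOLT-4. No beta or gamma subunit is filled.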

How the data were processed

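Per the labels' protocols, total RNA of DND-41 and MOLT-4 cells was made into stranded libraries and read from both ends. For each line the authors deposited raw read counts, without normalization, per the file headers. A second deposited table for each line holds the authors' comparison, with log2 fold changes and p-values, per the file headers. The sign of those log2 values is not stated. Their correlation with the values computed here was 1.00 for DND-41 and -1.00 for MOLT-4, so the MOLT-4 signs were turned to ACBI-1 minus DMSO. The submitters' processing notes name the build hg19, the aligner STAR 2.5.2a, DESeq2 1.12.4 and featureCounts. Neither annotation nor strand setting is given in the labels or headers, so reads of a gene and of an antisense partner cannot be told apart. For the 8 members, 0 genes with overlapping exons were found in GENCODE release 29, which may differ from the annotation that was counted.

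The test was edgeR's quasi-likelihood F-test (edgeR 4.0.16, limma 3.58.1, R 4.3.3) on counts scaled by the trimmed mean of M-values (TMM), with the default filter on low counts. The response of a line was fitted on its 4 libraries alone. The contrast of the DMSO groups and the difference of responses came from 1 model over all 8 libraries. The Benjamini-Hochberg adjustment ran over every gene tested, and the threshold was 5%. The standard error (SE) of a log2 fold change is its size over the square root of F, which can be too narrow for genes with few reads. Adjusted p-values are from edgeR unless another tool is named. Scaled counts (CPM) used TMM factors over the 8 libraries. CPM per kb used the union of exons in GENCODE release 29, which is on GRCh38. That release was used only for lengths and for the search for overlapping exons. Alternatives were DESeq2 1.42.0, its size factors, total counts, no filter, a threshold of 1% and a minimum fold of 1.5. Others were the replicate number as a block, 1 fit of all libraries, and leaving out each library. In a further alternative the MOLT-4 reads estimated for each DND-41 library were removed. In simulated data with 200 genes changed 2-fold, the test recovered 99% in DND-41 (13825 genes) and 100% in MOLT-4 (14247 genes). The changed genes were drawn only from those with more reads, and all genes shared a common spread. So this recovery does not cover changes below 2-fold, or members with few reads such as RGS2 in DND-41 and RGS16 in MOLT-4. With 2 libraries against 2, an exact permutation test cannot reach the threshold and was not used.

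The members, the other gene lists and the alternatives were chosen with earlier results of these data known. All 8 members were named, and from each other list up to 3 genes per line with the smallest p past the threshold and a mean of at least 1 CPM. For members averaging at least 5 CPM, the 2 genes most alike in log2(CPM + 1) over the 8 libraries were named. Genes given outside this rule are marked as such. Not every called gene of these lists is reported here.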

Additional observations from a re-analysis of the deposited data

Results flagged for a closer look

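Among the G-protein pathway genes with more than 3 reads in every library, the response of 3 genes differed between the lines by the interaction test over all 8 libraries (edgeR). Without that limit on reads, 4 of 96 pathway genes tested were called, or 4.17%, beside 0.641% of all genes tested. They were 3 of 30 leukocyte receptors and 1 of 11 alpha subunits. The lists were drawn up with results of these data known, so this share is a description. For GNA15, an alpha subunit of the Gq class found in blood cells, the log2 response in MOLT-4 minus that in DND-41 was -0.54 ± 0.11 (adjusted p = 0.00999). It fell in MOLT-4, in both libraries, and did not pass the threshold in DND-41. For PTGDR2, a receptor for prostaglandin D2, the same difference was -1.501 ± 0.21 (adjusted p = 0.000134). It rose in both DND-41 libraries with ACBI-1 and did not pass the threshold in MOLT-4. For S1PR1, a sphingosine 1-phosphate receptor, the difference was 1.07 ± 0.22 (adjusted p = 0.0105). It rose in both MOLT-4 libraries with ACBI-1, while in DND-41 it had 73 and 59 reads with DMSO and 44 and 41 with ACBI-1 and did not pass the threshold. CCR4 also differed by this test, but had 6 and 7 reads with DMSO and 0 and 0 with ACBI-1 in DND-41, so no size is given. No RGS member was among the genes with such a difference.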

How the results depend on the processing

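The counts of called genes moved with the setting, while the direction of each called RGS value was kept in every alternative that gave it. With no filter on low counts, 0 members were called in DND-41 and 0 in MOLT-4, beside 1 and 2 of the other pathway genes, and 2 and 39 of all genes. With a minimum fold of 1.5, the members called were 1 in DND-41, 0 in MOLT-4 and 4 between the lines, and the pathway genes 2 and 4. All genes called then numbered 35 in DND-41, 74 in MOLT-4, 4627 between the lines and 6 for the difference of responses. DESeq2 called 4 and 2 members, 11 pathway genes in each line, and 664 and 754 of all genes in DND-41 and MOLT-4. At a threshold of 1%, 763, 879 and 50 of all genes were called for DND-41, MOLT-4 and the difference of responses, the last falling to 13 with no filter. Leaving out each library in turn gave 0 to 5 members and 1 to 13 pathway genes in DND-41, 0 to 3 members and 0 to 18 pathway genes in MOLT-4, and 6 to 7 members between the lines. Over all genes it gave 3 to 632 calls in DND-41, 0 to 1430 in MOLT-4 and 49 to 138 for the difference of responses. The cause was not tested, beyond that such a fit has 1 library in an arm, assumed to vary like the other group. Values near 0 changed sign on leaving out a library: RGS14 in DND-41 ranged from -0.0221 to 0.21 on the log2 scale, RGS10 in MOLT-4 from -0.19 to 0.0207 and RGS14 in MOLT-4 from -0.0052 to 0.0741. The difference of responses ranged from -0.10 to 0.42 for RGS2, from -0.0074 to 0.26 for RGS3, from -0.15 to 0.0811 for RGS14 and from -0.83 to 0.23 for RGS16. With the replicate number as a block, 5 members were called in DND-41, 3 in MOLT-4 and 6 between the lines, with 24 pathway genes in each line, and 2230, 2228 and 302 of all genes for DND-41, MOLT-4 and the difference. Libraries with the same number deviated together with a correlation of 0.109 in DND-41 and 0.0867 in MOLT-4. Over only 2 pairs this cannot tell whether the libraries were paired. The main fits did not use the numbers. Depth limits RGS1 in MOLT-4, at 0 to 5 reads a library, and RGS16 there, at 8 to 37.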
